A study of Mus musculus with 27 samples.

Results

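Naive CD8 T cells of lin28Tg mice, which have little mature let-7, were compared with naive CD8 T cells of let-7Tg mice, which make extra let-7. The comparison takes 3 libraries of each genotype, 6 of the 27 RNA-seq libraries of the series, and was chosen by genotype and stage alone. All 35275 genes of the table entered it, and 13277 of them (37.6%) passed a filter on low values and were tested. The study asked how the level of let-7 before and during activation shapes the fate of CD8 T cells. Its other libraries were WT naive cells, shown here for reference, and cells of the same 3 genotypes activated for 12 h or grown to cytotoxic T lymphocytes (CTLs) for 5 days.

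Every mouse carried the P14 T cell receptor, which recognises the gp33 peptide of lymphocytic choriomeningitis virus, on a Rag2-/- background, in which no endogenous antigen receptor gene is rearranged. The lin28Tg mice (labelled Lin28bTg P14+) carried a Lin28b transgene whose promoter is not given in the sources used here. In let-7Tg P14+ mice a let-7g transgene was induced by doxycycline, and WT mice (labelled P14+) had neither transgene. Mice of both sexes were used at 6 to 10 weeks of age. The methods give 2 mg/ml doxycycline in the drinking water for 4 days, control animals included, while the label of the naive samples reads no treatment. Naive cells are labelled as lymph node T cells, the protocol names lymph nodes and spleens with red cells lysed, and the step that isolated CD8 T cells is not given. The 3 libraries of a genotype are described as biological replicates, and the number of mice behind each is not stated.

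The let-7 microRNAs guide Argonaute proteins to messenger RNAs that pair with their seed, the bases near the 5′ end, and such messengers are translated less and decay faster. Lin28 proteins bind let-7 precursors and stop their maturation, so a Lin28 transgene lowers the whole let-7 family at once. Resting T cells hold high let-7, which is lost after antigen recognition, and the family is known for restraining cell division and growth.

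All mature let-7 family members listed in RefSeq (GRCm38.p6) have the same seed, and 4 are printed here to show what the transgene product shares with its relatives. Capitals mark the seed, bases 2 to 8. The gene of let-7g lies on the plus strand at chr9:106178846-106178867.
let-7g-5p: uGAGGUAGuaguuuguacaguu
let-7a-5p: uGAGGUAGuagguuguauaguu
let-7i-5p: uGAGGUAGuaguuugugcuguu
miR-98-5p: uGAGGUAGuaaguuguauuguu
Counted from the 5′ end and with the base of let-7g first, let-7a differed by U12G and C18U, let-7i by A17G and A19U, and miR-98 by G11A, U12G, C18U and A19U. No difference fell within the seed.

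A full match to the seed followed by A in a 3′ UTR reads CTACCTCA. Of the 13 tested genes that the study lists as let-7 targets in naive cells, 6 held these 8 letters in the 3′ UTR of GENCODE M21 (GRCm38), 4 held the match of bases 2 to 8 alone (CTACCTC) and 3 the match of bases 2 to 7 with A alone (TACCTCA). The 6 sites are shown as 30 bases of the transcript strand with the 8 letters in capitals, because the levels of these genes are described below.
Ccr7, minus strand, chr11:99144785-99144814: cttaaccccatcccacttataaCTACCTCA
Cdc34, plus strand, chr10:79688105-79688134: cgtgtgggcctcaggcgacagaCTACCTCA
Dpp3, minus strand, chr19:4907504-4907533: ggcaggagcttggactttggtgCTACCTCA
E2f6, plus strand, chr12:16826396-16826425: cttcccaatcacctagcgctctCTACCTCA
Efhd2, minus strand, chr4:141859170-141859199: gggtgaaggccactgtgcgaatCTACCTCA
Tmed5, minus strand, chr5:108122815-108122844: ttaatgatcttgcactaccctgCTACCTCA

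Levels are in FPKM, a read number divided by the length of the gene and by the depth of the library. Libraries held 13862706 to 23591069 reads, and replicates differed by more than counting noise in every group (mean chi-square per gene 5.84 to 33.3). Differences are log2(FPKM + 0.5) of lin28Tg minus let-7Tg after scaling, with the standard error (SE) and the Benjamini-Hochberg adjusted p of limma, and a gene is called at an adjusted p under 0.05. All 9 naive libraries held CD8 T cell transcripts. Cd8a was at 518, 452 and 488 FPKM in lin28Tg and at 529, 544 and 499 FPKM in let-7Tg cells, and Cd8b1 ranged from 695 to 921 FPKM over these 6 libraries.

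The lin28Tg libraries stood apart from the others in 2 further ways, with replicate 2 the farthest. The summed level of 31 myeloid markers was 966, 3102 and 1675 FPKM in lin28Tg replicates 1, 2 and 3, against 260 to 457 FPKM in let-7Tg and 289 to 459 FPKM in WT cells. Erythroid markers summed to 504 to 2013 FPKM in lin28Tg, 4.67 to 43.0 FPKM in let-7Tg and 155 to 297 FPKM in WT libraries, and natural killer (NK) cell markers to 172 to 361, 50.7 to 84.9 and 61.8 to 135 FPKM. The B cell markers summed to 366 to 459 FPKM in lin28Tg, 384 to 432 FPKM in let-7Tg and 418 to 449 FPKM in WT libraries. Of these, Ms4a1 and Pax5 were at or below 0.28 FPKM in all 9 libraries. Each of the 3 lin28Tg libraries also held Xist (68.2 to 115 FPKM) together with the Y-linked gene Ddx3y (13.0 to 37.4 FPKM), so each contained RNA of animals of both sexes. In WT and let-7Tg cells, replicate 1 had Ddx3y at 49.1 and 54.2 FPKM with Xist at or below 0.051 FPKM, and replicates 2 and 3 had Xist at 154 to 205 FPKM with Ddx3y at or below 0.20 FPKM. Sex composition therefore differed between the genotypes and cannot be told apart from them, and its part in the results was not tested.

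**Figure D1:**
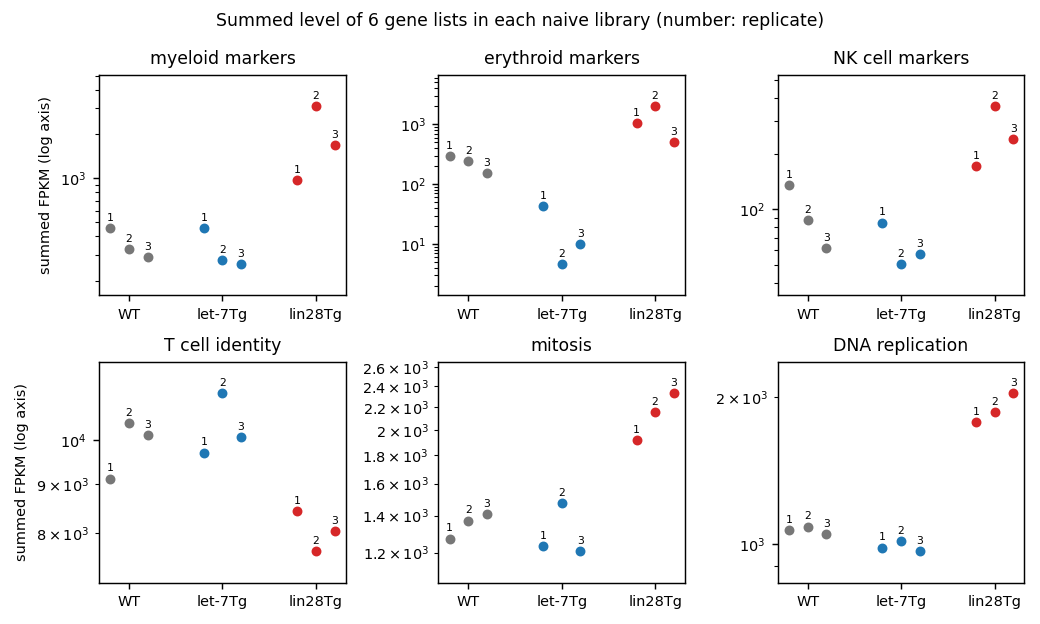
Summed FPKM (log axis) of the members of 6 gene lists in each naive library, with the replicate number at each point. Myeloid, erythroid and NK cell markers were higher in every lin28Tg library than in any let-7Tg library, myeloid markers by the widest margin in replicate 2, while mitosis and DNA replication genes were highest in replicate 3.

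For these reasons the lists were also counted in fits chosen after seeing the data, without lin28Tg replicates 2 and 3 and with the log2 of each library's summed myeloid marker level as a covariate. The covariate follows genotype closely, so it widened the median SE from 0.124 to 0.280 (2.30 times). Both fits called far fewer genes of any kind, so a lower list count there is not by itself a result about the list. Less RNA per cell and fewer cells of a type cannot be told apart in these bulk libraries.

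The Lin28b transgene was seen in every lin28Tg library. Lin28b (chr10:45376620-45486395, minus strand) was at 67.9, 56.4 and 66.1 FPKM in lin28Tg cells and at 0.0358, 0 and 0 FPKM in let-7Tg cells. The lin28Tg libraries held 19416 reads of it and the let-7Tg libraries 3, a ratio of 4899 after depth (exact 95% counting interval 1676 to 23757). The groups were far from overlapping, with a difference of 6.96 (SE 0.13, adjusted p = 4.7e-09). The other Lin28 gene, Lin28a, was at or below 0.14 FPKM in every naive library and was not tested. Mature let-7 was not measured by this assay. Col1a1 (chr11:94936224-94953042) is the locus that, by the study's account, holds the let-7 transgene. Its level was 10.1, 19.3 and 26.6 FPKM in let-7Tg, 1.93, 4.93 and 4.45 FPKM in lin28Tg and 1.07 to 1.43 FPKM in WT cells. The difference was -2.13 (SE 0.35, adjusted p = 0.0013). Of 111 other tested genes within 5 Mb of Col1a1 45.0% were called, near the 43.4% of 12961 genes elsewhere in the genome.

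lin28Tg and let-7Tg naive cells differed in 5755 of the 13277 genes tested (43.3%), of which 3213 (24.2%) were higher and 2542 (19.1%) lower in lin28Tg cells. The higher genes moved farther, with a median log2 difference of 0.83 against -0.46 for the lower ones. A difference of at least 1 on the log2 scale was seen in 1376 of the higher genes (42.8%) and in 175 of the lower ones (6.88%). The median over all genes tested was -0.0041. In 7102 genes (53.5%) the 3 libraries of one genotype did not overlap the 3 of the other. Without lin28Tg replicate 2 the fit called 4627 genes, without replicates 2 and 3 it called 2351, and with the myeloid covariate 101 (0.761%), 79 higher and 22 lower. Of those 101, 100 were also called in the same direction without the covariate, and 30 were on the cell cycle lists described next. Among the 5755 genes, 86.7% kept the sign of their difference with the covariate and 76.0% had a smaller one.

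**Figure D2:**
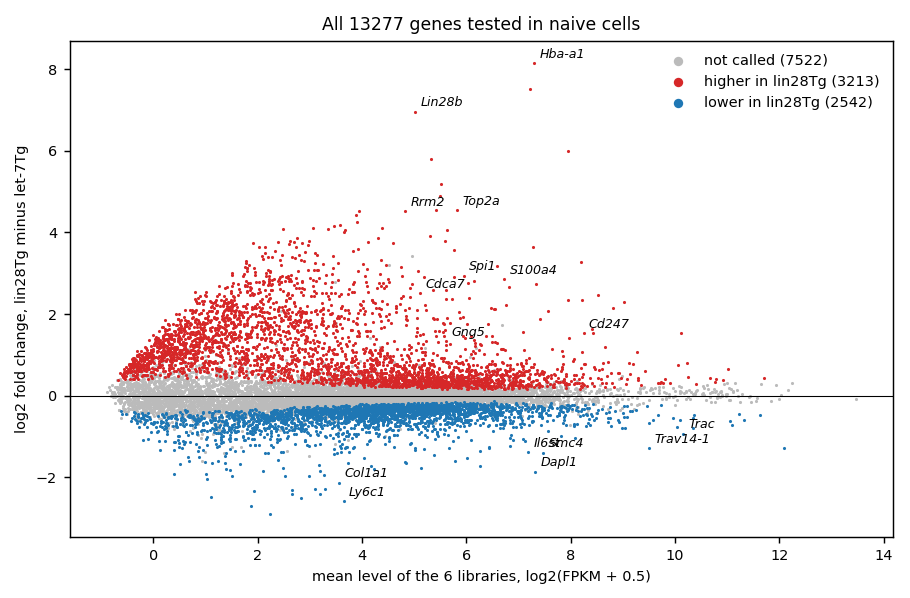
Each of the 13277 tested genes by its mean level in the 6 libraries, log2(FPKM + 0.5), and its log2 fold change, lin28Tg minus let-7Tg, with called genes in colour. The 3213 higher genes spread to larger differences than the 2542 lower ones, and Lin28b and the hemoglobin gene Hba-a1 lie at the top.

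WT cells lay nearer to let-7Tg than to lin28Tg cells. The WT mean was the nearer to the let-7Tg mean in 89.0% of the genes that were higher in lin28Tg cells and in 68.8% of those that were lower. Against the same WT libraries lin28Tg cells differed in 4369 genes (32.9%), with 20.3% higher and 12.6% lower, and let-7Tg cells in 112 (0.844%), with 0.331% higher and 0.512% lower. These fits share libraries with the main comparison, so their values are only set side by side here.

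Genes of cell division were higher in lin28Tg cells almost throughout, while over all genes tested 24.2% were higher and 19.1% lower. Of 29 mitosis genes tested, 28 were higher in lin28Tg cells and 1 lower, with a median difference of 3.18, and of 42 DNA replication genes 38 were higher and none lower, with a median of 1.08. The 4 replication genes not called were Fen1 (0.30), Pole2 (0.35), Rfc1 (-0.06) and Rpa1 (0.14), named after their values were seen. G1 cyclins, their kinases and E2F factors had 20 of 27 members higher and 1 lower, with a median of 0.79.

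Top2a, the topoisomerase that untangles replicated chromosomes, was at 81.2, 102 and 141 FPKM in lin28Tg cells and at 4.64, 4.74 and 3.06 FPKM in let-7Tg cells. Every lin28Tg library lay far above every let-7Tg library, a difference of 4.55 (SE 0.22, adjusted p = 3.7e-06), while WT cells had 5.13 to 7.82 FPKM. Mki67, the proliferation marker Ki-67, stood at 14.4, 17.3 and 24.3 FPKM against 0.73, 0.579 and 0.544 FPKM (4.08, SE 0.22, adjusted p = 4.6e-06). Cyclin A2 (Ccna2), which drives S phase and entry into mitosis, was 31.1-fold higher by its means and stathmin (Stmn1), a regulator of the spindle, 9.25-fold. In all 4 of these genes replicate 1 was the lowest and replicate 3 the highest lin28Tg library.

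Among the replication genes, Rrm2, the subunit of ribonucleotide reductase that limits the supply of deoxynucleotides, was at 41.7, 52.2 and 67.5 FPKM in lin28Tg cells and at 2.04, 1.88 and 1.65 FPKM in let-7Tg cells (4.51, SE 0.19, adjusted p = 1.5e-06). Helicase subunits rose less but as evenly. Mcm5 was at 46.1, 50.8 and 52.2 FPKM against 15.4, 15.1 and 16.6 FPKM (1.65, SE 0.07, adjusted p = 1.5e-06), and Mcm2 differed by 1.46. Uhrf1, which carries DNA methylation through replication, was 8.83-fold higher and Pcna, the polymerase clamp, differed by 1.13 (adjusted p = 1.2e-05).

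Of the regulators, E2f2 (chr4:136172394-136196057), a transcription factor of the G1 to S transition and a described let-7 target, was at 24.1, 28.1 and 34.1 FPKM in lin28Tg and at 2.8, 3.88 and 3.41 FPKM in let-7Tg cells (2.93, SE 0.14, adjusted p = 3.6e-06). E2f1 differed by 3.30 and E2f8 by 3.15. Cdkn1b, the cell cycle inhibitor p27, was the member that fell, at 43.1, 37.1 and 46.4 FPKM against 55.9, 55.2 and 53.3 FPKM (-0.36, SE 0.08, adjusted p = 0.0066). The inhibitor Cdkn2c moved the other way, by 1.40.

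Cdca7 (chr2:72476159-72486893), a chromatin factor expressed with the cell cycle, had the smallest adjusted p after Lin28b. It was at 52.8, 56.9 and 65.7 FPKM in lin28Tg, at 9.47, 10.7 and 9.71 FPKM in let-7Tg and at 13.9 to 15.2 FPKM in WT cells (2.51, SE 0.09, adjusted p = 7e-07). Smc4, a condensin subunit that compacts mitotic chromosomes, was the mitosis gene that went down. It was at 92.0, 86.9 and 110 FPKM in lin28Tg and at 243, 273 and 256 FPKM in let-7Tg cells (-1.40, SE 0.09, adjusted p = 1.3e-05). WT cells lay between, at 167 to 200 FPKM.

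Not all of these calls held in the other fits, while the medians moved less. Without lin28Tg replicates 2 and 3 the medians of mitosis and replication genes were 2.89 and 1.00. Of 29 mitosis and 42 replication genes 28 and 38 were higher in the main fit. With the myeloid covariate, where 0.761% of all genes tested were called, 13 and 13 were higher. The covariate fit gave medians of 2.72 and 0.90, and Smc4 remained lower (-1.15, adjusted p = 0.047). Upward, the lin28Tg libraries were in the order 1, 2, 3 in Top2a, Mki67, Ccna2 and Stmn1. The summed myeloid markers had the order 1, 3, 2 and the erythroid markers 3, 1, 2. Here and below, an order of 3 libraries cannot tell sources of RNA apart, and none was tested. Among G1 genes the median was 0.81 without lin28Tg replicates 2 and 3, and 3 were higher with the covariate.

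**Figure D3:**
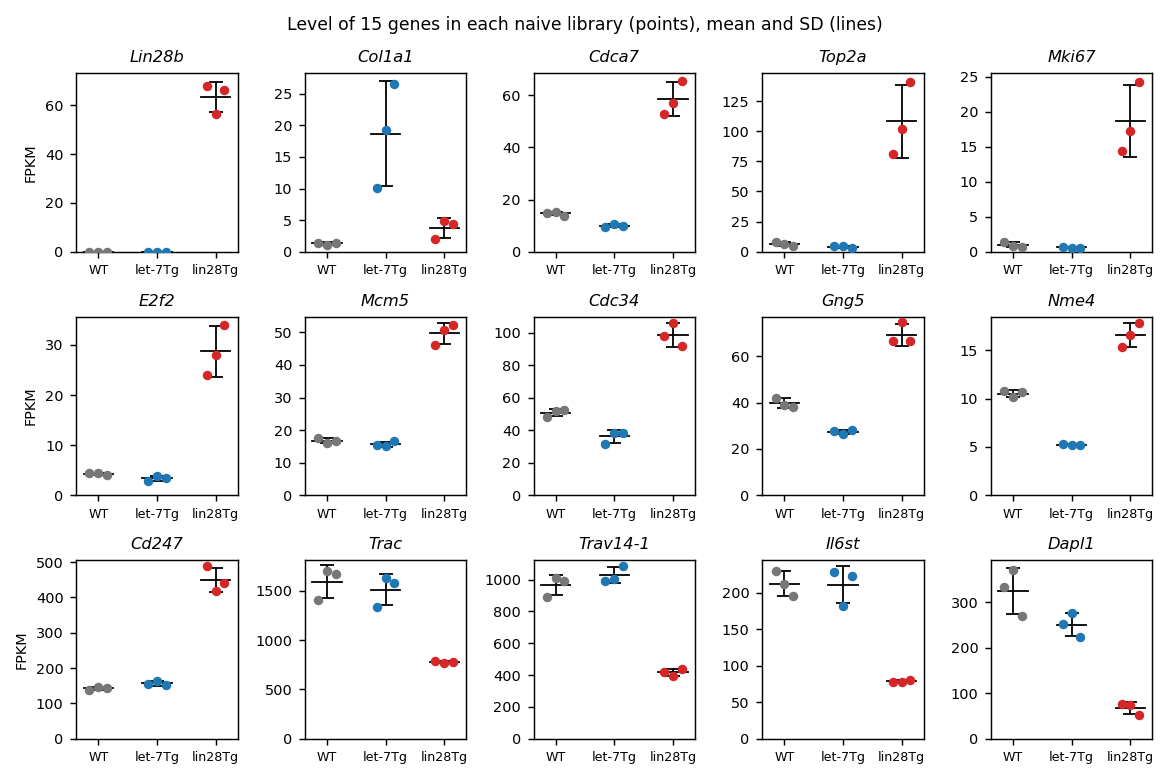
FPKM of 15 genes in each naive library of WT, let-7Tg and lin28Tg mice (points), with the mean and SD of the 3 libraries (lines). The cell cycle genes Cdca7, Top2a, Mki67, E2f2 and Mcm5 and the let-7 targets Cdc34, Gng5 and Nme4 were highest in lin28Tg cells, and Trac, Trav14-1, Il6st and Dapl1 lowest.

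Described let-7 targets were mostly higher in lin28Tg cells. Of 32 such genes from the literature 25 were tested, of which 18 were higher and 3 lower, with a median difference of 0.78. Over all genes tested 24.2% were higher and 19.1% lower. Some of these targets, such as E2f2, are also cell cycle genes. All 13 genes of the study's own list for naive cells were higher, with a median of 0.93, but the study chose that list on these libraries, so it is not independent evidence of direction. Among the lower genes were Insr (-0.61) and Irs2 (-0.54), which carry insulin signals. Bach1 (0.10), Cdk6 (0.06), Dicer1 (-0.05) and Igf1r (-0.11) were not called.

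Cdc34, the ubiquitin-conjugating enzyme whose site is printed above, was at 98.1, 106 and 91.6 FPKM in lin28Tg cells and at 31.8, 38.3 and 38.4 FPKM in let-7Tg cells. The groups lay apart by 1.46 (SE 0.08, adjusted p = 6.9e-06), and WT cells lay between them at 48.3 to 52.6 FPKM. Gng5, a G protein subunit, was at 66.8, 74.7 and 66.5 FPKM against 27.7, 26.5 and 28 FPKM, with WT at 38.1 to 42.2 FPKM (1.34, SE 0.07, adjusted p = 3.7e-06). Nme4, a mitochondrial nucleoside diphosphate kinase, was at 15.3, 16.6 and 17.8 FPKM against 5.29, 5.23 and 5.15 FPKM, with WT at 10.1 to 10.8 FPKM (1.59, SE 0.09, adjusted p = 4.6e-06). These 3 genes were above WT in lin28Tg and below WT in let-7Tg cells, by 0.92, 0.77 and 0.61 in lin28Tg cells (adjusted p = 9.9e-05, 8.0e-05 and 0.0010) and by -0.53, -0.57 and -0.98 in let-7Tg cells (adjusted p = 0.033, 0.0080 and 0.0026). The study drew its list from genes that it found raised without let-7 and reduced by the let-7 transgene in these libraries. For members of that list a WT level in between was therefore part of the choice. Against WT, 12 of its 13 genes were called higher in lin28Tg cells and 4 lower in let-7Tg cells. Of the 25 literature targets, 14 were higher and 3 lower in lin28Tg cells, and 2 were lower in let-7Tg cells.

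Of the other genes with a printed site, Dpp3, a peptidase, differed by 0.79 (SE 0.05, adjusted p = 1.4e-05), E2f6, a repressor among the E2F factors, by 0.79, Tmed5, a cargo receptor of the secretory pathway, by 0.75 and the homing receptor Ccr7 by 0.77. Efhd2, a calcium-binding protein, was at 102, 154 and 109 FPKM against 49.3, 40.1 and 40.9 FPKM (1.47, SE 0.14, adjusted p = 7.9e-05). Its lin28Tg libraries followed the order of the myeloid markers, and with the covariate its difference was 0.67 (adjusted p = 0.13). Hmga1, an architectural chromatin protein of the literature list, was at 142, 145 and 137 FPKM against 61.7, 73.6 and 60.6 FPKM (1.13, SE 0.09, adjusted p = 3.1e-05), and with the covariate the difference was 1.25 (adjusted p = 0.041). Myc, the growth regulator and also a described target, was at 80.8, 88.7 and 72.3 FPKM against 55.8, 49.4 and 56.0 FPKM, with WT at 77.3 to 82.7 FPKM (0.60, SE 0.08, adjusted p = 0.00060). With lin28Tg replicate 1 alone 13 of 23 literature targets were higher and 1 lower (median 0.62), and all 13 of the study's list were higher (median 1.09). With the covariate 3 genes of each target list were called, and the medians were 0.44 for the literature and 0.78 for the study's list.

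Seed matches were read in the 3′ UTR of the longest protein-coding transcript of 11916 tested genes. The 8 letters CTACCTCA occurred in 432 of them (3.63%), of which 33.8% were higher and 15.5% lower in lin28Tg cells, with a median difference of 0.095. Genes with CTACCTC but not the 8 letters numbered 822, of which 29.3% were higher and 16.3% lower, and genes with TACCTCA alone numbered 764, with 29.7% and 16.8%. In the 9898 genes with none of these letters 25.2% were higher and 19.5% lower, with a median of 0.0020. The letters were searched on the transcript strand only, and the longer motif contains both shorter ones. A match here describes the UTR and is not evidence that let-7 binds it.

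Long UTRs hold more matches by length alone, so genes were also divided into 3 equal groups by UTR length. In the group of shortest UTRs 47.1% of 102 genes with a match of bases 2 to 8 were higher, against 28.4% of 3870 without, and in the middle group 37.1% against 25.6%. In the group of longest UTRs the shares were 26.1% and 22.0%. The median difference of genes with 8 letters and of genes with no match was 0.11 and -0.015 without lin28Tg replicates 2 and 3, and 0.12 and -0.013 with the covariate. The medians were not tested.

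Among 22 tested genes that make and use microRNAs 5 were higher, Lin28b among them, and 5 lower (median -0.06), shares near the 24.2% and 19.1% of all genes tested. Ago3, an Argonaute protein, was at 15.8, 13.2 and 17.6 FPKM in lin28Tg and at 26.2, 19.3 and 27.6 FPKM in let-7Tg cells (-0.61, SE 0.15, adjusted p = 0.0091). Ddx5, a helicase of the nuclear processing complex, differed by -0.60 (adjusted p = 0.0015), and Khsrp, which helps precursors mature, by 0.42. Without lin28Tg replicates 2 and 3 the list held 1 higher and 1 lower gene, and with the covariate 1 higher gene.

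Several biosynthetic lists held more higher genes than the 24.2% of all genes tested, and others did not. Of 30 genes of the Myc program and ribosome biogenesis 23 were higher and 1 lower (median 0.36), of 43 genes of the endoplasmic reticulum and secretion 29 were higher (median 0.34), of 40 proteasome genes 26 (median 0.25) and of 20 cytosolic chaperones 16 (median 0.51), with none lower in the last 3 lists. Structural proteins of the cytosolic ribosome had 7 of 82 higher and 1 lower (median 0.07), translation factors 18 of 63 and 3 (median 0.12), and cholesterol and fatty acid synthesis 6 of 29 and 3 (median 0.0024). Of 20 tRNA synthetases 8 were higher and none lower (median 0.11), a count of 5 without lin28Tg replicate 1 or 2 and of 4 without let-7Tg replicate 3.

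Pa2g4, a growth regulator of the nucleolus, was at 164, 164 and 171 FPKM in lin28Tg and at 102, 103 and 100 FPKM in let-7Tg cells, with WT at 118 to 124 FPKM (0.72, SE 0.05, adjusted p = 1.5e-05). The groups were tight and far apart, and the call held with the covariate (0.76, adjusted p = 0.041). Pdia6, which forms disulfide bonds in the endoplasmic reticulum, was at 130, 155 and 129 FPKM against 64.2, 65.0 and 60.5 FPKM (1.13, SE 0.09, adjusted p = 2.7e-05). Psmb2, a proteasome subunit, differed by 0.77 and Fbl, the methyltransferase fibrillarin of the nucleolus, by 0.57.

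Energy metabolism was uneven, beside 24.2% higher and 19.1% lower over all genes tested. Glycolysis had 11 of 22 members higher and 5 lower (median 0.33), the pentose phosphate and one-carbon pathways 11 of 16 higher and none lower (median 0.49), and oxidative phosphorylation 48 of 76 higher and 1 lower (median 0.30). Gapdh was at 1260, 1494 and 1231 FPKM in lin28Tg and at 805, 841 and 757 FPKM in let-7Tg cells (0.74, SE 0.10, adjusted p = 0.00037), and Pgam1, a later enzyme of glycolysis, differed by 1.03. The kinase Pdk1, which inhibits pyruvate dehydrogenase, went the other way, at 55.1, 45.1 and 49.6 FPKM against 128, 104 and 133 FPKM (-1.25, SE 0.11, adjusted p = 4.2e-05). The glucose transporters Slc2a1 and Slc2a3 differed by -0.36 and -0.44. Hexokinase 2 (Hk2), which traps glucose in the cell, was at 5.25, 10.5 and 6.15 FPKM against 1.70, 0.696 and 0.706 FPKM (2.36, SE 0.29, adjusted p = 0.00027), highest in the library with most myeloid RNA, and with the covariate its difference was 0.78 (adjusted p = 0.39).

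These metabolic counts fell when libraries were left out, and so did calls over all genes tested. The share over all genes was 43.3% in the main fit and 35.8% without lin28Tg replicate 2. Leaving out lin28Tg replicate 2 took the called genes of oxidative phosphorylation from 49 to 30, of the mitochondrial ribosome from 28 to 16, of the proteasome from 26 to 17 and of the cytosolic ribosome from 8 to 2, and without let-7Tg replicate 3 the proteasome count was also 17. Without let-7Tg replicates 1 and 3 in turn the cytosolic ribosome count was 3 and 5. With lin28Tg replicate 1 alone the medians were 0.30 for oxidative phosphorylation, 0.29 for glycolysis and 0.56 for the pentose phosphate and one-carbon pathways. They were 0.26 for the proteasome, 0.38 for the secretory list, 0.62 for the chaperones and 0.44 for the Myc program. Translation factors had a median of 0.16, tRNA synthetases of 0.17 and lipid synthesis of -0.018. With the covariate 1 gene of the Myc program was called and no translation factor, tRNA synthetase or gene of lipid synthesis or of the pentose phosphate and one-carbon pathways. In that fit 0.761% of all genes tested were called, and none of glycolysis, oxidative phosphorylation, the proteasome, the secretory list or the chaperones. Their medians were 0.18, 0.19, 0.13, 0.27 and 0.59.

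**Figure D4:**
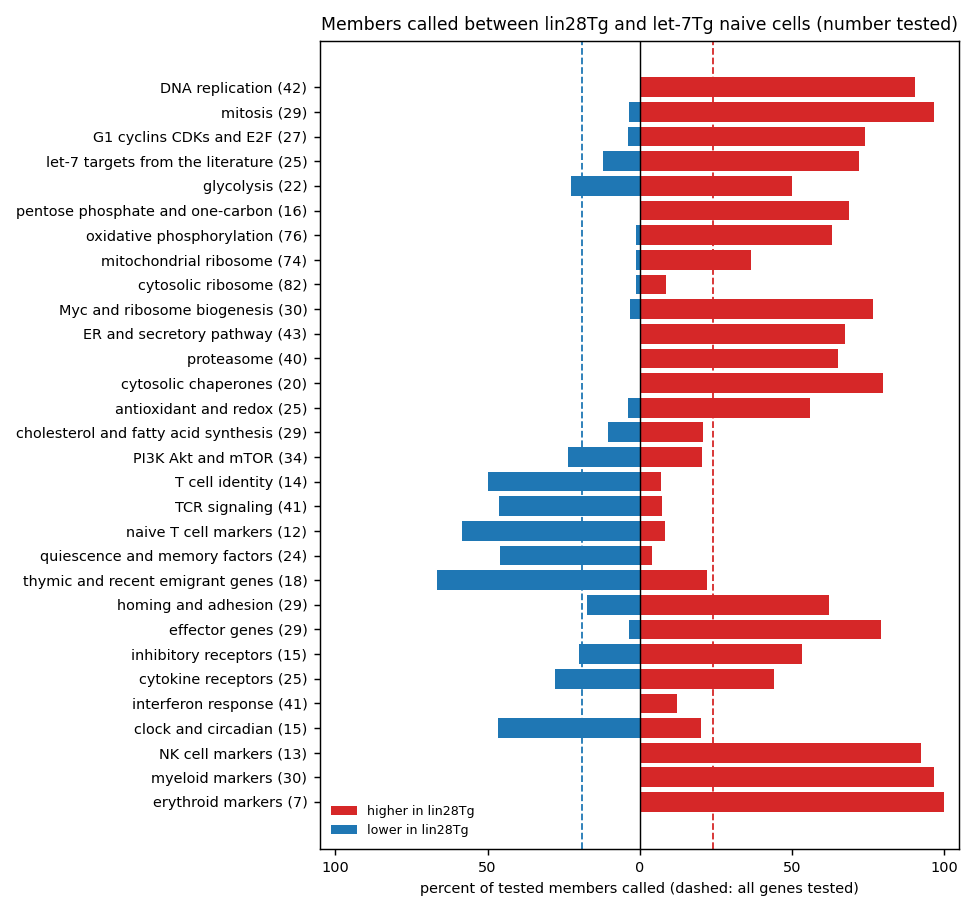
Percent of the tested members of 30 gene lists called higher or lower in lin28Tg than in let-7Tg naive cells, with dashed lines at the share over all genes tested (24.2% higher and 19.1% lower). Erythroid, myeloid and NK cell markers, mitosis and DNA replication genes reached the highest shares of higher genes, and T cell receptor signaling and naive markers lay above the line for lower genes.

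Lists of the resting T cell held more lower genes than the 19.1% of all genes tested, and some higher ones. Of 12 naive markers 7 were lower and 1, the let-7 target Ccr7, higher (median -0.63), of 24 quiescence and memory factors 11 were lower and 1 higher (median -0.41), and of 41 genes of T cell receptor signaling 19 were lower and 3 higher (median -0.23). Among 14 T cell identity genes 7 were lower and 1 higher (median -0.44). The summed level of the identity genes was 7659 to 8440 FPKM in lin28Tg and 9714 to 11201 FPKM in let-7Tg cells, in libraries where myeloid and erythroid transcripts differed in the other direction. When replicates 2 and 3 of lin28Tg were left out, 3 identity genes were lower and 1 higher (median -0.32), and 8 signaling genes were lower and 2 higher (median -0.17). With the covariate none of either list was lower and 1, Cd247, was higher, with medians of 0.04 and -0.02.

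Dapl1, a gene of naive and memory T cells, was at 76.9, 74.1 and 53.2 FPKM in lin28Tg and at 253, 275 and 224 FPKM in let-7Tg cells (-1.87, SE 0.17, adjusted p = 5.0e-05). The groups lay far apart, and the difference was -1.96 with the covariate (adjusted p = 0.061). S1pr1, the receptor that lets T cells leave lymph nodes, was at 76.8, 73.5 and 81.5 FPKM against 144, 172 and 143 FPKM (-0.96, SE 0.08, adjusted p = 4.1e-05). Bach2, a repressor that holds T cells in the naive state, differed by -1.02, and Satb1, a chromatin organiser, by -0.63. Without lin28Tg replicates 2 and 3, 6 naive markers and 9 quiescence factors were lower, and with the covariate none was, with medians of -0.26 and -0.18.

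The T cell receptor genes diverged. Trac, the constant region of the alpha chain, was at 793, 763 and 776 FPKM in lin28Tg and at 1331, 1624 and 1578 FPKM in let-7Tg cells (-0.93, SE 0.11, adjusted p = 0.00020). The segment Trav14-1 (chr14:53554022-53554558) was at 417, 395 and 438 FPKM against 993, 1005 and 1087 FPKM (-1.29, SE 0.08, adjusted p = 8.2e-06), though its reads may be shared with near-identical segments. Every mouse carried the P14 receptor transgene on a Rag2-/- background, so reads of Trac and Trav14-1 may come from it. Their source was not tested. Cd247, the zeta chain that carries the receptor signal (chr1:165788681-165877277), ran opposite, at 488, 419 and 441 FPKM against 156, 163 and 151 FPKM, with WT at 138 to 146 FPKM (1.53, SE 0.08, adjusted p = 3.7e-06). Its groups lay far apart, and with the covariate it differed by 1.79 (adjusted p = 0.0054). Cd5, a brake on receptor signaling, differed by -0.69 and Cd6, a related surface protein, by -0.66.

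Several of the lower genes with the smallest adjusted p also passed the test with the covariate. Il6st, the gp130 chain shared by receptors of the IL-6 family, was at 77.9, 78.4 and 81.0 FPKM in lin28Tg and at 228, 182 and 223 FPKM in let-7Tg cells (-1.39, SE 0.09, adjusted p = 1.2e-05), and it stayed lower with the covariate (-1.56, adjusted p = 0.018). Patj, a scaffold of cell polarity, was at 8.99, 6.73 and 7.81 FPKM against 26.3, 26.7 and 28.6 FPKM (-1.72, SE 0.11, adjusted p = 9.7e-06). Cirbp, a cold-induced RNA-binding protein, differed by -1.13, the adhesion molecule Pecam1 by -0.84 and Cd72, a surface receptor, by -1.08. All 5 were also lower with the covariate, with adjusted p of 0.018, 0.032, 0.025, 0.038 and 0.047.

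Most effector genes were higher in lin28Tg cells, while over all genes tested 24.2% were higher and 19.1% lower. Of 29 tested 23 were higher and 1 lower, with a median of 1.60, and without lin28Tg replicates 2 and 3 the counts were 10 and 1 and the median 1.23. S100a4, a calcium-binding protein of effector and memory T cells and of myeloid cells, was at 158, 230 and 165 FPKM in lin28Tg and at 36.9, 19.6 and 21.8 FPKM in let-7Tg cells (2.85, SE 0.24, adjusted p = 3.9e-05). The chemokine Ccl5 was at 252, 373 and 284 FPKM against 103, 59.9 and 58.7 FPKM (2.08, SE 0.26, adjusted p = 0.00033). In both genes replicate 2 was the highest lin28Tg library, as for the myeloid and NK cell markers. Perforin (Prf1), the pore-forming protein of killer cells, was the effector gene that fell, at 33.8, 36.9 and 29.9 FPKM against 61.4, 65.3 and 55.0 FPKM (-0.83, SE 0.10, adjusted p = 0.00021). With the covariate, where 0.761% of all genes tested were called, no effector gene was and the median was 0.08.

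Homing and adhesion genes had 18 of 29 higher and 5 lower (median 0.71), against 24.2% and 19.1% over all genes tested. Without lin28Tg replicates 2 and 3 the median was 0.52, and with the covariate none was called (median 0.15). Ccr6, a chemokine receptor of mucosal T cells and of B cells, was at 8.93, 10.0 and 13.4 FPKM in lin28Tg and at 0.630, 0.149 and 0.352 FPKM in let-7Tg cells (3.71, SE 0.37, adjusted p = 9.4e-05). The lin28Tg libraries were in the order of the cell cycle genes, and with the covariate the difference was 2.65 (adjusted p = 0.17).

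Myeloid, NK cell and erythroid markers were higher in lin28Tg cells almost throughout, and other marker lists were mixed. Of 30 myeloid markers tested 29 were higher in lin28Tg cells and none lower (median 2.68), with 12 of 13 NK cell markers (median 1.73) and 7 of 7 erythroid markers (median 5.81). Over all genes tested 24.2% were higher and 19.1% lower. The transcription factor Spi1, which directs myeloid fate, was at 52.6, 182 and 94.7 FPKM in lin28Tg and at 17.8, 10.2 and 10.2 FPKM in let-7Tg cells (2.94, SE 0.39, adjusted p = 0.00040). Every lin28Tg library lay above every let-7Tg library, replicate 1 by the smallest margin. The alpha globin gene Hba-a1 was at 267, 538 and 131 FPKM against 2.16, 0 and 0.121 FPKM and at 41.8 to 76.8 FPKM in WT cells, though its reads may be shared with Hba-a2. Of 7 B cell markers tested 4 were higher and none lower (median 1.22), among them Igkc (2.76) and Cd22 (2.44). Of 6 CD4 and regulatory T cell markers 3 were higher and 2 lower (median 0.79), and without lin28Tg replicate 2 or 3 their called number was 3. With lin28Tg replicate 1 alone 22 of 28 myeloid (median 1.85), 4 of 13 NK cell, 5 of 6 erythroid and 3 of 6 B cell markers were higher. With the covariate, which is built from the myeloid list, its median was 0.11, that of NK cell markers -0.13, of B cell markers -0.21 and of erythroid markers 2.71, and no member of these lists was called. Of 11 stromal and endothelial markers tested 9 were higher and 2 lower (median 1.22). Without lin28Tg replicate 2, 2 of 7 were higher and 2 lower (median 0.74), and with the covariate 1 was lower (median 0.24). The list summed to 51.1 to 80.5 FPKM in lin28Tg and 72.1 to 77.8 FPKM in let-7Tg libraries.

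**Figure D5:**
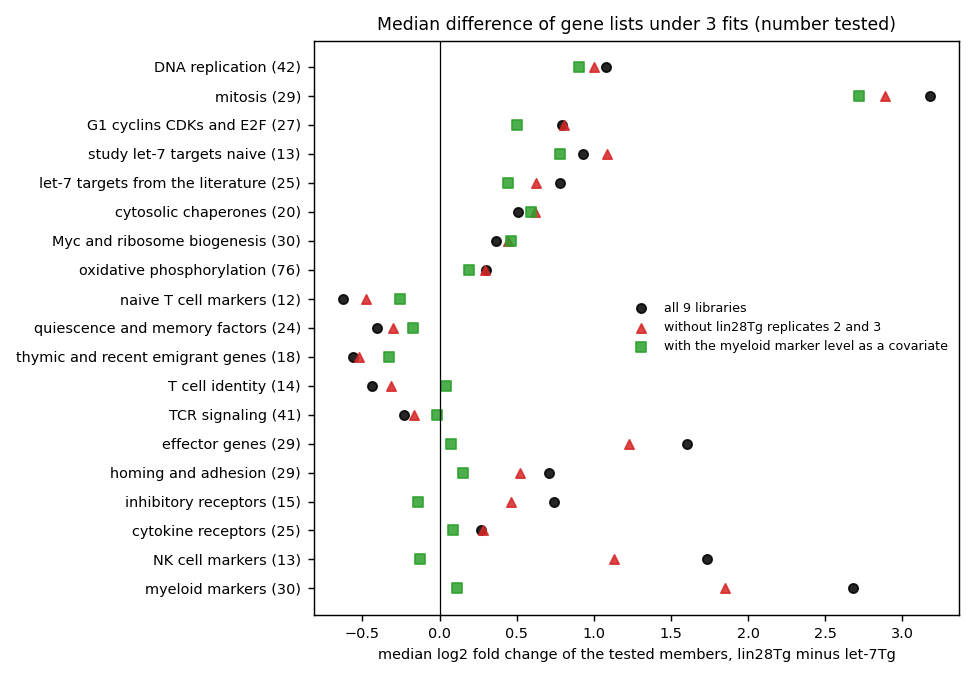
Median log2 fold change, lin28Tg minus let-7Tg, of 19 gene lists in 3 fits, with all 9 naive libraries, without lin28Tg replicates 2 and 3, and with the summed myeloid marker level as a covariate. Mitosis (3.18, 2.89 and 2.72) and DNA replication (1.08, 1.00 and 0.90) moved little between fits, while effector genes went from 1.60 to 1.23 and 0.08.

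The same contrast was measured after activation. In 1 model of all 27 libraries, in which 14453 genes were tested, it changed between naive cells and 12 h in 1939 genes (13.4%) and between naive cells and day 5 CTLs in 3719 (25.7%). It was more positive in naive cells in 8.03% of genes and more negative in 5.38% against 12 h, and in 16.1% and 9.62% against day 5. Without the naive lin28Tg replicate 2 the first count was 1245. In this model 36.3% of genes differed between lin28Tg and let-7Tg cells when naive (22.1% higher and 14.3% lower), 24.5% at 12 h (9.53% lower) and 28.7% at day 5 (15.6% and 13.1%). Mitosis genes had 28 of 29 members higher in naive cells, 26 at 12 h and none in CTLs, where 1 was lower, with medians of 3.19, 2.63 and -0.18. Their difference from naive to day 5 was itself called in 27 genes as more positive in naive cells and in 1 as more negative, and in 34 and 0 of 42 DNA replication genes. The study's 13 let-7 targets stayed higher, in 13 genes at 12 h and in 11 in CTLs, where 1 was lower. Naive markers were lower in CTLs in 12 of 12 genes with a median of -2.54, and the change from naive cells was called in 6. Myeloid markers had 29, 12 and 5 of 30 members higher.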

How the data were processed

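A company sequenced RNA of naive cells, with 3 libraries for each of the 3 genotypes. The authors aligned paired reads with TopHat2 2.0.9 and Bowtie2 2.0.6, counted them with HTSeq 0.6.1 and deposited FPKM per gene. The processing notes name GRCm38 and mm10, and the annotation release is not given in the sources used here. The deposited tables also hold mean read counts, fold changes and p-values of the authors' own comparisons with DESeq2, which were not used. Whole reads were recovered from 462839 of 462839 nonzero values (tolerance 2e-08), and 25144 genes had a read in the series.

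FPKM of each library were scaled by trimmed mean of M values and fitted as log2(FPKM + 0.5) with limma 3.58.1 (R 4.3.3, empirical Bayes with a trend), in 1 model of the 9 naive libraries. All p-values are two-sided with Benjamini-Hochberg adjustment, and fold changes of low genes are understated by the added 0.5 FPKM. A gene was tested where 3 libraries or more had the FPKM that 10 reads give in a library of median depth, and the 9 libraries together held 15 reads. Scripts were tested on simulated data. Intervals and the floor of 3 reads cover counting error only, and p-values measure the spread between libraries, whose animals are not identified. Seed matches were read in 3′ UTRs of GENCODE M21 (GRCm38), and microRNAs come from RefSeq (GRCm38.p6).

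Genes were named by rule: Lin28b and Col1a1, the 10 non-overlapping genes with the smallest adjusted p and the 5 with the largest change in each direction, the study's target and heatmap lists, up to 4 called members of each other list in each direction and 5 genes for each change between stages in each direction. Cd8a, Cd8b1, Lin28a, sex-linked genes, B cell markers and members that were not called were named after their values were seen. The comparison, its lists and the fits without 2 libraries or with a covariate were chosen with earlier results of these data known. Values of a few genes are not reported here.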

Additional observations from a re-analysis of the deposited data

Results flagged for a closer look

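The difference between lin28Tg and let-7Tg cells changed with stage, by the interaction term of limma over all 27 libraries, in the genes below. They have the smallest adjusted p in each direction. From naive cells to 12 h it was more positive in naive cells by 2.11 for Fam83a, where the means were 2.52 and 0.0760 FPKM in naive lin28Tg and let-7Tg cells and 0.118 and 0.0423 FPKM at 12 h. For Cdca7 it was more positive by 2.56, with 58.4 and 9.95 FPKM in naive cells and 211 and 226 FPKM at 12 h. The transgene product Lin28b gave 2.28, with means in lin28Tg cells of 63.5 FPKM in naive cells and 10.9 FPKM at 12 h. Cdkn3, a phosphatase of the cell cycle, gave 2.72 and Serpina3n, a protease inhibitor, 1.31, but let-7Tg naive libraries held only 3 and 2 reads of them. The exact 95% counting intervals of their ratios in naive cells were 11.2 to 165 and 10.8 to 336.

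The difference was more negative in naive cells than at 12 h for Jade2 (-1.91), which had 23.7 and 42.5 FPKM in naive lin28Tg and let-7Tg cells and 36.0 and 17.1 FPKM at 12 h, so that its direction turned. Il17a, the cytokine IL-17A, gave -4.34 and was at 0 in naive cells of both genotypes, with 9.83 and 0.0359 FPKM at 12 h. Hpcal4 gave -2.49, A530021J07Rik, a long noncoding RNA, -2.84 and Ccdc9b -1.79. A530021J07Rik had 0.587 and 7.84 FPKM in naive cells and was at 0 in all lin28Tg and let-7Tg libraries at 12 h.

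From naive cells to day 5 CTLs the difference was more positive in naive cells by 3.52 for E2f2, 4.26 for Stmn1, 4.16 for Ccna2, 3.90 for the mitotic kinesin Kif18b and 2.29 for Fam83a. Stmn1 had 172 and 18.6 FPKM in naive lin28Tg and let-7Tg cells and 358 and 811 FPKM in CTLs. It was more negative in naive cells by -4.99 for Prf1, which had 33.6 and 60.6 FPKM in naive cells and 244 and 14.0 FPKM in CTLs. Sult2b1 gave -4.90, A530021J07Rik -2.84, Ccdc9b -1.81 and E330009J07Rik -1.46.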

How the results depend on the processing

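With both pseudocounts, both filters, both scalings, voom and the 6 libraries alone the count of called genes was 5089 to 5864 (5755 as reported), and leaving out 1 of the 9 libraries gave 4627 to 5564. No filter or scaling turned the direction of a named gene. The 2 fits chosen after seeing the data moved most. Without lin28Tg replicates 2 and 3 the counts were 2351 in all, 1355 higher and 996 lower, and 442 of the called list members against 715, where the lone library was assumed to vary like the other groups. With the myeloid covariate they were 101, 79 and 22, with 34 named genes called against 277 and 46 list members. Changes from naive cells to 12 h numbered 1245 to 1983 on leaving out 1 naive library and 1243 for genes with a mean of at least 1 FPKM, against 1939. The cause was not tested.

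Turned differences were Jak3, -0.094 to 0.019 on leaving out 1 library, 0.066 without lin28Tg replicates 2 and 3 and 0.35 with the covariate, and Il4ra, 0.0014 without lin28Tg replicates 2 and 3. With the covariate they were Stat5a 0.027, Cd244a -0.66, Nr1d1 -0.025, Cd4 -1.03, Tcof1 0.073, Notch1 0.18, Gbp3 -0.39, Tnfrsf9 -0.18, Bhlhe40 -0.12, Cd22 -0.14, Rbpj -0.0023, Ago4 -0.15, Entpd1 -0.12, Ifng -0.97, H2-Ab1 -0.046, Tox2 -0.18, Igkc -0.87, Traj20 1.03, Gzmc -0.77 and Bcl2a1a -0.043.

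The main fit did not pair libraries by replicate number. In their deviations from the group means, same-numbered WT and let-7Tg libraries correlated from 0.060 to 0.47 and differently numbered ones from -0.40 to 0.29. Sex-linked transcripts of these 2 genotypes followed the replicate number too. Same-numbered pairs with a lin28Tg library correlated from -0.25 to 0.11. With the replicate block 5940 genes were called, 5529 of them shared in direction with the 5755, and 2607 and 4499 genes changed from naive cells to 12 h and to day 5. Groups of 3 libraries and genes near the floor of 3 reads limit what could be seen.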

Other observations

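Of 15 clock genes 7 were lower and 3 higher in lin28Tg naive cells (median -0.32), against 19.1% lower and 24.2% higher over all genes tested. Without lin28Tg replicates 2 and 3, 4 were lower and 1 higher (median -0.35), and with the myeloid covariate none was called (median -0.40). Nr1d2, a repressor of the clock, was at 6.43, 7.10 and 8.16 FPKM in lin28Tg and at 16.9, 13.0 and 13.6 FPKM in let-7Tg cells (-0.93, SE 0.12, adjusted p = 0.00039), and the output factor Dbp differed by -0.93. The hours at which animals were killed are not given in the sources used here. Genes of thymocytes and recent emigrants had 12 of 18 lower and 4 higher (median -0.56), 8 and 2 without the 2 libraries (median -0.52), and none called with the covariate (median -0.33). Ephb6, a receptor of T cells without kinase activity, was at 3.10, 3.36 and 3.83 FPKM against 13.1, 16.8 and 14.9 FPKM (-1.95, SE 0.15, adjusted p = 2.6e-05), and Dntt, the polymerase that adds bases during receptor rearrangement, differed by -1.65.

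Cytokine receptors moved in both directions, with 11 of 25 higher and 7 lower (median 0.27), against 24.2% and 19.1% over all genes tested. Without the 2 libraries their median was 0.28, and with the covariate 1 was lower. Il2rb, a chain of the IL-2 and IL-15 receptors, was at 177, 162 and 160 FPKM in lin28Tg and at 106, 94.2 and 94.7 FPKM in let-7Tg cells (0.78, SE 0.08, adjusted p = 0.00011). The receptors of TGF-beta diverged, as Tgfbr1 differed by 0.78 and Tgfbr2 by -0.38. Interferon response genes had 5 of 41 higher (12.2%) and none lower, below the 24.2% and 19.1% over all genes tested. The count was 10 without WT replicate 1 and 8 without WT replicate 3. It was 3 without lin28Tg replicate 3, let-7Tg replicate 1 or let-7Tg replicate 3. It was also 3 without lin28Tg replicates 2 and 3, and none was called with the covariate.

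In some genes let-7Tg cells stood farther from WT than lin28Tg cells did, and in Gm8810 both lay below it. Ly6c1, a surface protein of memory T cells and monocytes, was at 18.4, 19.4 and 25.2 FPKM in let-7Tg, 2.73, 2.46 and 3.92 FPKM in lin28Tg and 7.88, 1.71 and 2.51 FPKM in WT cells (-2.60, SE 0.41, adjusted p = 0.0010). The pseudogene Gm8810 (chr17:36066108-36067753) had no read in the 3 let-7Tg naive libraries and 284 in the 3 lin28Tg libraries, at least 71.7-fold higher in lin28Tg cells against a floor of 3 reads over the group. It was at 8.90, 6.52 and 4.05 FPKM in lin28Tg and at 11.3, 13.2 and 13.9 FPKM in WT cells, and its reads may be shared with near-identical genes of the MHC region, where 41.3% of 126 tested genes were called, against 43.4% elsewhere in the genome.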
